A study of Mus musculus with 2 samples.

Results

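The proteasome genes of mouse granulocyte monocyte progenitors (GMP, the marrow cells that form neutrophils and monocytes) were described by the open chromatin at their promoters. Members were the protein-coding genes whose symbols begin with Psma, Psmb, Psmc, Psmd, Psme, Psmf or Psmg, 50 of the 21755 genes of that type annotated on the 19 autosomes and the X chromosome. They were sorted by known role into 31 constitutive subunits, 6 genes of the interferon-induced immunoproteasome and its activator, 2 subunits restricted to testis or thymus, 10 assembly and regulatory factors, and 1 gene, Psmc3ip, that shares only the name. Psmc3ip encodes a meiotic recombination factor and is no proteasome subunit.

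The proteasome is the protease that degrades ubiquitin-tagged proteins. Its 20S core is a barrel of alpha and beta rings in which only a few beta subunits cut peptides, and its 19S cap binds ubiquitin, unfolds substrates with ATPases and feeds them into the core. Interferon gamma induces replacement catalytic subunits that form the immunoproteasome, which makes peptides for MHC class I, and blood cells are known to contain it also without infection. Related variants of single subunits are known from testis and from the thymus.

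The series is an assay for transposase-accessible chromatin (ATAC-seq) on GMP of adult male C57BL/6J mice of 5 to 6 weeks, with no treatment or mutation in the labels. The 2 biological replicates used 50000 cells each and carry the same donor label with separate biosample labels, and they form 1 group. The sources used here do not say how the cells were isolated, nor whether the replicates came from separate animals. The deposited files are lists of accessible regions in mm10, with a fold enrichment for each region that is the authors' own value and whose denominator is not given.

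A promoter was counted as open where a merged region of the conservative series-level list had its summit within 1 kb of an annotated transcription start site (TSS). Where a gene had several such regions, the one with the highest fold was used. Fold was read only within its list, also as a percentile among the open promoters of that list. The files hold no read counts, so depth is unknown and a missing region is only one that did not pass the list's threshold. In these bulk lists, fewer cells with an open promoter and less opening in each cell cannot be told apart. Regions numbered 75129 in the series list, 65406 in replicate 1 and 53670 in replicate 2. Of 10 myeloid markers, among them Cebpa, Mpo and Csf3r, all 10 had an open promoter, while 0 of 3 T cell markers, 0 of 2 hepatocyte markers, 0 of 2 muscle markers and 1 of 3 B cell markers (Pax5) did.

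Of the 50 proteasome genes, 47 had an open promoter, against 62.7% of all protein-coding genes. The same 47 were open in both replicates, where 57.5% of all genes were open in both, 61.4% in replicate 1 and 58.1% in replicate 2. For each of the 47 the regions of the replicates overlapped. The genes without a promoter region were Psma8, Psmb11 and Psme2b.

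The open members were shifted toward higher fold, though not all of them lay above the median of open promoters. Their median fold was 12.2, with a range of 6.27 to 18.03, against a median of 10.2 over the 13650 open promoters of all genes. Of the 47, 31 were above the median of open promoters, where 50% of all open promoters lie by definition, and 20 were above the 75th percentile, where 25.0% lie. The median member stood at the 71st percentile (71.2) in the series list, at 71.05 in replicate 1 and at 68.9 in replicate 2. The median number of annotated TSSs was 5 for the members and also 5 for all genes with an open promoter. The order of the members repeated between replicates, with a Spearman rho of 0.92 across the 47 genes (0.898 across the 12512 genes open in both). Genes are not independent replicates, and both lists share annotation and promoter sequence. The percentile of a member differed between replicates by a median of 6.09 points and by at most 25.1 points, at Psmb9.

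**Figure D1:**
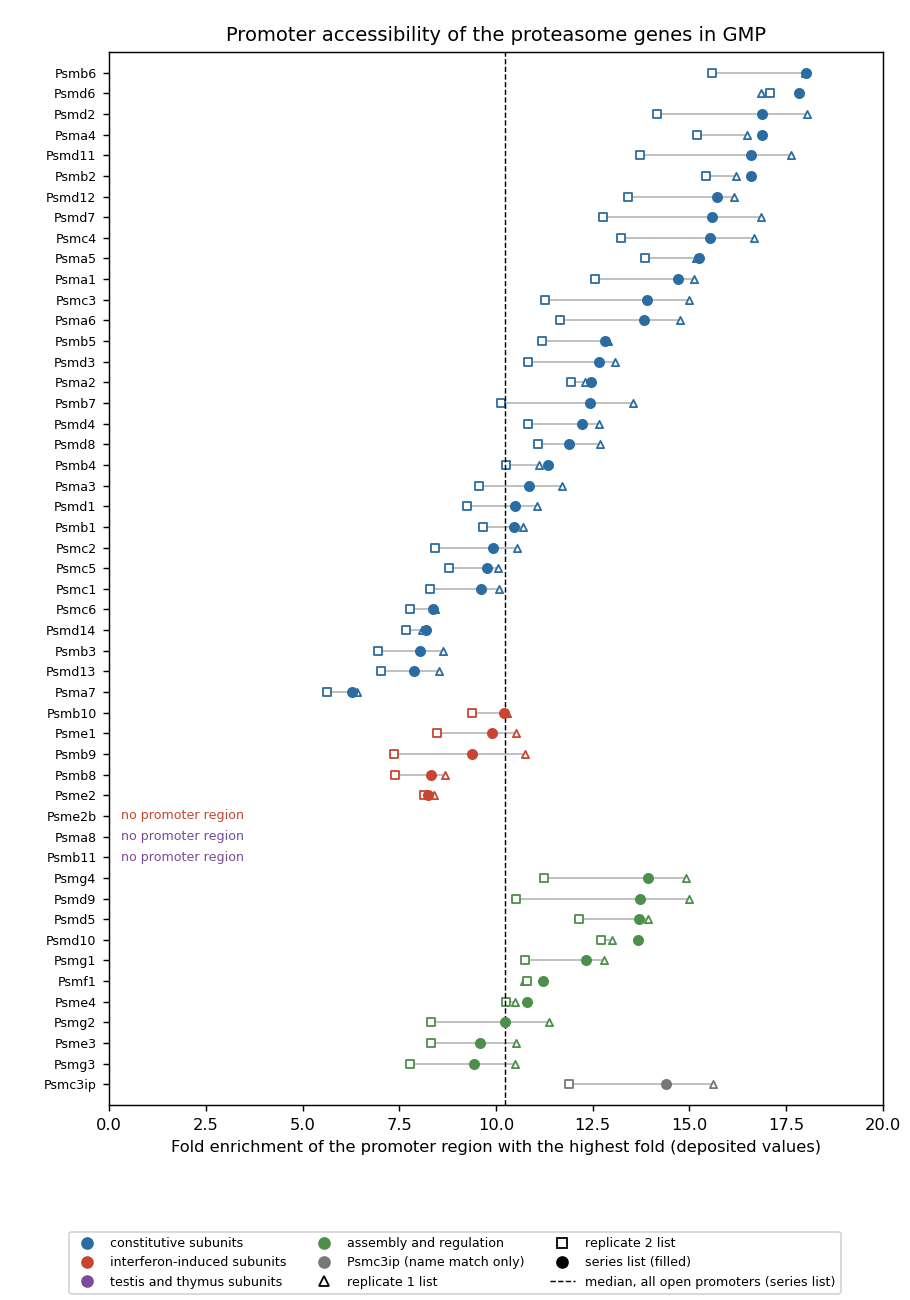
Fold enrichment of the promoter region with the highest fold for each proteasome gene, 1 row per gene, grouped by class and sorted by fold. Filled circles are the series list, triangles and squares the lists of replicate 1 and replicate 2, the grey line joins the replicates, and the dashed line is the median of all open promoters in the series list, 10.2; in the series list constitutive subunits reach 18.03, the highest interferon-induced gene has 10.2, and Psme2b, Psma8 and Psmb11 have no region.

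**Figure D2:**
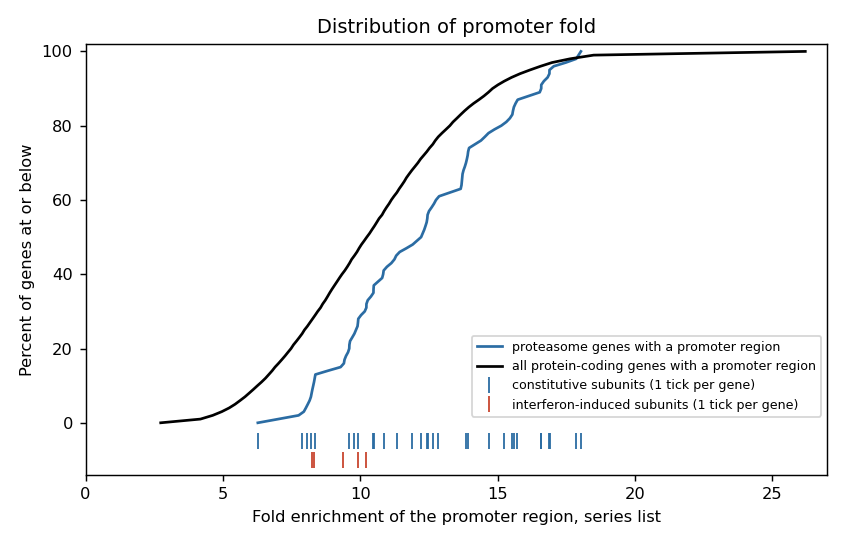
Cumulative distribution of promoter fold in the series list (x axis, deposited fold enrichment; y axis, percent of genes at or below it) for the 47 open proteasome genes and for all 13650 open genes. Ticks under the curves mark single constitutive and interferon-induced genes; the median is 12.2 for proteasome genes and 10.2 for all genes.

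The alpha ring, which gates entry to the core, was open at all 7 constitutive genes. The median alpha ring fold was 13.8. Psma4 had a fold of 16.5 in replicate 1, 15.2 in replicate 2 and 16.9 in the series list. Psma5 followed with 15.2 in the series list, Psma1 with 14.7, Psma6 with 13.8, Psma2 with 12.5 and Psma3 with 10.9. Psma7 was the 1 alpha gene below the median of open promoters.

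Psma7 encodes the alpha subunit that Psma8 replaces in testis. It had a fold of 6.40 in replicate 1, 5.63 in replicate 2 and 6.27 in the series list, at the 10.1 percentile, the lowest of all 47. That Psma7 region, chr2:180040270-180040785, was intronic, with its summit at -420 bp from the start of a transcript annotated with a retained intron. At the starts of the coding Psma7 transcripts the fold was 5.70 in replicate 1, 5.01 in replicate 2 and 5.32 in the series list, over a region of 1201 bp. Psma7 was thus low at either start.

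The non-catalytic beta subunits were open at all 4 genes, with a median fold of 10.9. Psmb2 reached 16.6 and Psmb4 11.3. Psmb1 stood at 10.5, at a summit 34 bp from the TSS of its neighbour Tbp, the TATA-binding protein. Psmb3 was low, at 8.63 in replicate 1, 6.96 in replicate 2 and 8.04 in the series list.

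The standard catalytic subunits are Psmb5, Psmb6 and Psmb7, which carry the chymotrypsin-like, caspase-like and trypsin-like activities. Psmb6 had 17.997 in replicate 1, 15.6 in replicate 2 and 18.03 in the series list, the 98.5 percentile. That was the highest fold of the proteasome genes in the series list, while Psmd2 was higher in replicate 1 and Psmd6 in replicate 2. Psmb5 had 12.9 in replicate 1, 11.2 in replicate 2 and 12.8 in the series list. Psmb7 had 13.5 in replicate 1, 10.1 in replicate 2 and 12.4 in the series list. All 3 were above the median of open promoters in every one of these lists.

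The 101 bp around the summits of the 3 genes are shown on the gene's strand (RefSeq GRCm38.p6, the mm10 chromosomes), because these promoters are set against the interferon-induced ones below them in fold. Capitals mark matches to the searched motifs: an antioxidant response element (ARE, TGACNNNGC) in Psmb5 and Psmb6, and a KLF/SP site (GGGCGGGG, here on the other strand) and an ETS site (CCGGAAGT) in Psmb7. The ARE is the element known to be bound by Nfe2l1, the factor that restores proteasome genes when proteasome activity falls.
Psmb5, chr14:54617978-54618078, minus strand: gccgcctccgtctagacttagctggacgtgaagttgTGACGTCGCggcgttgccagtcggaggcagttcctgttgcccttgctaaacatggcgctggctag
Psmb6, chr11:70525270-70525370, plus strand: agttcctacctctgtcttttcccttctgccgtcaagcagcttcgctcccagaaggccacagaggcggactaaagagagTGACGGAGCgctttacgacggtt
Psmb7, chr2:38643924-38644024, minus strand: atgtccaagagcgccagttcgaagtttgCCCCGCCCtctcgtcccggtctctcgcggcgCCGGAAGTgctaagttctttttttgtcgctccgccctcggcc

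The interferon-induced genes were open as well, at a lower fold. Psmb8, Psmb9 and Psmb10, which replace Psmb5, Psmb6 and Psmb7 in the immunoproteasome, each had a promoter region in both replicates. Psmb8 had a fold of 8.67 in replicate 1, 7.40 in replicate 2 and 8.31 in the series list (chr17:34197441-34197877, 437 bp, summit 2 bp inside the first exon). A second Psmb8 region, at 563 bp downstream of the coding start, had a fold of 6.80 in the series list and 7.11 in replicate 1. In replicate 2 only the looser list held it, with a fold of 6.28. Psmb9 had 10.8 in replicate 1, 7.37 in replicate 2 and 9.38 in the series list (chr17:34186922-34187997, 1076 bp). Its start lies 30 bp from that of Tap1, which is on the opposite strand and encodes a subunit of the peptide transporter of class I antigen presentation, and both genes share this region.

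Psmb10 gave different values at its different annotated starts. Its region with the highest fold, chr8:105936832-105937529, had 10.3 in replicate 1, 9.38 in replicate 2 and 10.2 in the series list. That Psmb10 region lies in an intron, 1362 bp downstream of the start of the coding transcript and 44 bp upstream of shorter transcripts with a retained intron or without a reading frame. The Psmb10 region over the coding start, chr8:105937611-105938564, had a fold of 5.28 in the series list and 4.09 in replicate 2. Its summit in the series list lay 304 bp downstream of the coding start. A row with its summit at the coding start itself had a fold of 3.86 there. In replicate 1 no row within 1 kb of the coding start passed the threshold, while the looser list of replicate 1 held one with a fold of 5.86.

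The sequences at these summits carried interferon-type matches in Psmb9 and at the Psmb10 summit 304 bp downstream of its coding start. Capitals mark the element bound by interferon regulatory factors (ISRE, GAAANNGAA) in both, and an ARE on the other strand at the intronic Psmb10 summit. Psmb8 had no match to any of the 13 motifs in this window. The window labelled Psmb10 coding start, centred 304 bp downstream of that start, held 3 ISRE matches, of which a pair overlap.
Psmb8, chr17:34197673-34197773, plus strand: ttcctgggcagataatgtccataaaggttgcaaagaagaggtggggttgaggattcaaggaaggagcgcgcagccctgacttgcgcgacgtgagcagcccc
Psmb9, chr17:34187697-34187797, minus strand: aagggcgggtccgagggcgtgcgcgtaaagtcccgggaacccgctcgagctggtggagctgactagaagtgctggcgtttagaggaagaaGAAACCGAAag
Psmb10 intron, chr8:105937032-105937132, minus strand: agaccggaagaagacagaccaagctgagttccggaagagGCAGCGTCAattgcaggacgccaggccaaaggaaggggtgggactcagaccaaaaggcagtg
Psmb10 coding start, chr8:105938090-105938190, minus strand: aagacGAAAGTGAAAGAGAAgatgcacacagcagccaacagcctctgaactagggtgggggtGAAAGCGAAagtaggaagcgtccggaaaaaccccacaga

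In each of the 3 catalytic pairs the standard subunit had the higher percentile, in the series list and in both replicates. Psmb5 stood at the 76.8 percentile and Psmb8 at 28.5 in the series list. In replicate 1 they stood at 73.2 and 26.8, and in replicate 2 at 73.7 and 25.6. Psmb6 stood at 98.5 and Psmb9 at 40.4 in the series list, with 98.2 and 50.3 in replicate 1 and 97.9 and 25.2 in replicate 2. Psmb9 was the less repeatable of the pair. Psmb7 stood at 73.1 and Psmb10 at 49.8 in the series list, with 79.0 and 45.2 in replicate 1 and 61.9 and 51.3 in replicate 2. At the coding starts alone Psmb10 was at the 4.77 percentile in the series list, so the size of the last difference depends on which Psmb10 start is taken.

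**Figure D3:**
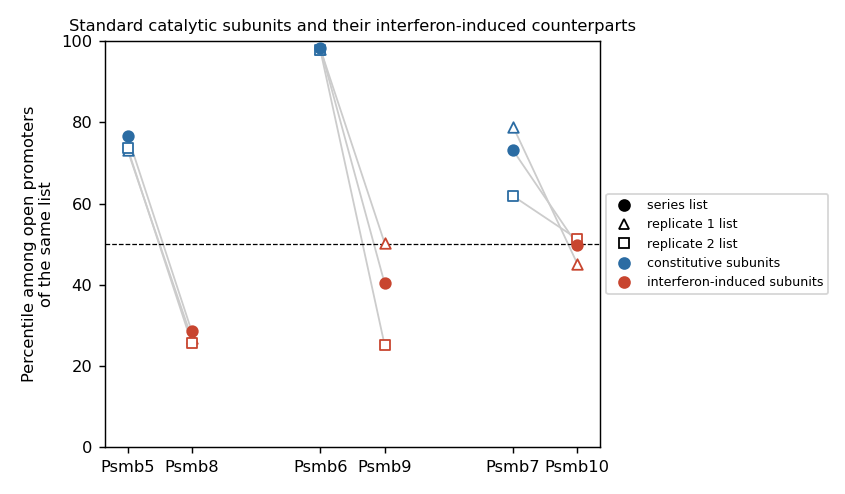
Percentile of promoter fold among all open promoters of the same list (y axis, 0 to 100) for each standard catalytic subunit and, to its right, its interferon-induced counterpart. Circles are the series list, triangles replicate 1, squares replicate 2, and the dashed line is the median of open promoters; in all 3 pairs every line runs downward, least for Psmb7 and Psmb10 in replicate 2.

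The interferon-induced activator genes were similar in level. Psme1 and Psme2 encode the ring that opens the core without ATP. Psme1 had 10.5 in replicate 1, 8.48 in replicate 2 and 9.90 in the series list, and Psme2 had 8.39 in replicate 1, 8.14 in replicate 2 and 8.25 in the series list. Both Psme1 and Psme2 lay below the median of open promoters in each of the 3 lists. Psme2b, named after Psme2, had no promoter region in any list used. Its nearest region in the series list was 21.7 kb away, with a fold of 4.30. Psme2b is annotated with 1 TSS on chromosome 11, against 10 for Psme2 on chromosome 14. Whether reads can be placed at Psme2b apart from Psme2 was not tested, so its lack of a region may not describe an activator gene.

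As classes, constitutive subunits were open at 31 of 31 genes, immunoproteasome genes at 5 of 6 (all but Psme2b) and tissue-restricted subunits at 0 of 2. The share of all genes was 62.7%. The median fold of the open genes was 12.5 in constitutive subunits and 9.38 in immunoproteasome genes, a difference of 3.07 in the units of the series list. It was 12.9 and 10.3 in replicate 1, and 11.1 and 8.14 in replicate 2. In the series list 23 of 31 constitutive and 0 of 5 immunoproteasome genes were above the median of open promoters, and in each replicate the counts were 22 of 31 and 1 of 5. In the series list the ranges overlapped, at 6.27 to 18.03 for constitutive subunits and 8.25 to 10.2 for immunoproteasome genes. The Psmb10 region over its coding start had 5.28. With 5 open genes in 1 class and no contrast between samples, the difference was not tested.

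The tissue-restricted subunits had no promoter region in the thresholded lists. Psmb11, the catalytic subunit of the thymus, lies next to Psmb5, and the nearest summit to its TSS, 3.402 to 3.408 kb upstream, was that of the Psmb5 promoter in each of the 6 lists examined, the looser ones included. Psma8, the alpha subunit of testis, had its nearest region in the series list 23.0 kb away, close to the TSS of Ss18. The looser series list held a region at the Psma8 TSS with a fold of 4.48 and a summit at -3 bp. The looser list of replicate 1 held it too (fold 4.25), and that of replicate 2 did not. In the looser series list 70.4% of all genes had a promoter region.

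The ATPases of the 19S base were open at all 6 genes but spread widely, with a median fold of 9.86. Psmc4 (15.5) and Psmc3 (13.9) were above the 75th percentile of open promoters. The other 4 were below the median of open promoters, with Psmc2 at 9.93, Psmc5 at 9.78, Psmc1 at 9.61 and Psmc6 at 8.37. In both replicates, too, Psmc3 and Psmc4 were above the median of open promoters and the other 4 below it. Psmc4 had 16.7 in replicate 1 and 13.2 in replicate 2, and Psmc6 had 8.41 in replicate 1 and 7.78 in replicate 2.

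The 11 non-ATPase subunits of the 19S cap were all open, with a median fold of 12.7. Psmd6, a lid subunit, had 16.9 in replicate 1, 17.1 in replicate 2 and 17.8 in the series list. Psmd2, a large subunit that docks ubiquitin receptors and shuttles, had 18.04 in replicate 1, 14.2 in replicate 2 and 16.9 in the series list. Psmd11, Psmd12 and Psmd7 also exceeded 15 in the series list. At the low end, Psmd13, a lid subunit, had 8.53 in replicate 1, 7.02 in replicate 2 and 7.88 in the series list. Psmd14, the deubiquitinase that removes ubiquitin chains before degradation, had 8.10 in replicate 1, 7.67 in replicate 2 and 8.19 in the series list. In the series list Psmd3 had 12.7, Psmd4 12.2, Psmd8 11.9 and Psmd1 10.5.

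The assembly and regulatory factors were open at all 10 genes, with a median fold of 11.8. The chaperones of the 19S base, Psmd5, Psmd9 and Psmd10, had nearly equal folds of 13.7 in the series list. Replicates placed them less evenly, with Psmd9 at 14.98 in replicate 1 and 10.5 in replicate 2, and Psmd5 at 13.9 in replicate 1 and 12.1 in replicate 2. Among the chaperones of the core, Psmg4 had 14.9 in replicate 1, 11.2 in replicate 2 and 13.9 in the series list. Psmg2 had 11.4 in replicate 1, 8.32 in replicate 2 and 10.2 in the series list. Psmg3 was lowest, with 10.5 in replicate 1, 7.78 in replicate 2 and 9.44 in the series list, and Psmg1 had 12.3 there. The inhibitor Psmf1 had 11.2. Of the other activators, the nuclear Psme3 had 10.5 in replicate 1, 8.31 in replicate 2 and 9.60 in the series list. Psme4, an activator known for its role in sperm formation, had 10.5 in replicate 1, 10.3 in replicate 2 and 10.8 in the series list. The widest region of all members was at Psme4, with 1830 bp. Psmc3ip, which matches by name only, had 15.6 in replicate 1, 11.9 in replicate 2 and 14.4 in the series list.

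Proteasome promoter summits sat close to the start of transcription. Of the 47, 39 (83.0%) had the summit within 100 bp of a TSS, against 63.8% of all open promoters. The median summit was at -23 bp for members and at -36 bp for all open promoters. Members farther than 200 bp were Psma7 (-420 bp), Psmg2 (-307 bp), Psme3 (-278 bp) and Psmd3 (-227 bp). The median width of the regions was 892 bp, against 866 bp for all open promoters. A single promoter region was found at 39 members, 2 regions at 7 and 3 at Psma7.

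**Figure D4:**
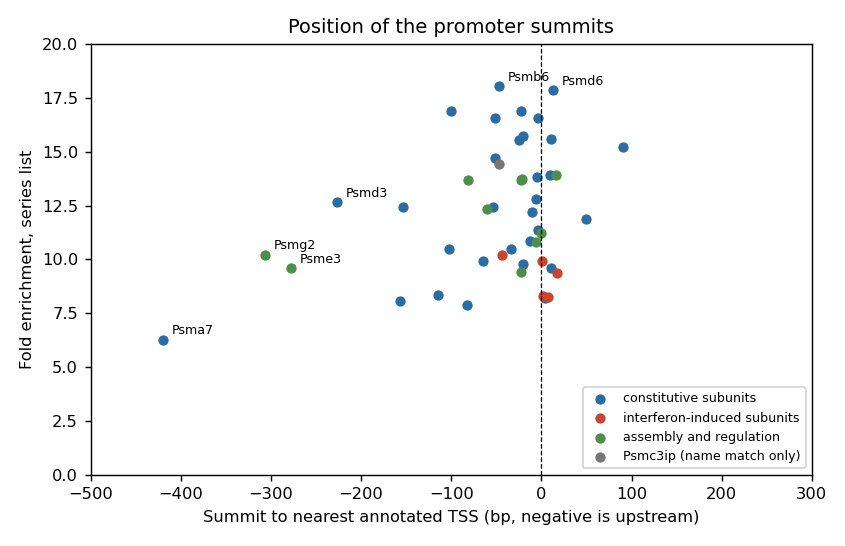
Distance of the promoter summit from the nearest annotated TSS (x axis, bp, negative is upstream) and fold enrichment in the series list (y axis) for the 47 open proteasome genes, coloured by class. Most points lie within 100 bp of the TSS; genes farther than 200 bp are named, as are the members with the highest folds, Psmb6 and Psmd6.

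Several members shared their promoter region with a neighbour. At 11 of 47 (23.4%) the summit was also within 1 kb of a TSS of another protein-coding gene, against 19% of all open promoters, and no 2 proteasome genes shared one. In 10 of the 11 the neighbour ran in the opposite direction. Apart from Psmb9 with Tap1 and Psmb1 with Tbp, the closest pairs were Psmc2 with Dnajc2 (67 bp between starts), Psmc5 with Ftsj3 (75 bp) and Psmd13 with Sirt3 (99 bp). A region of this kind cannot be assigned to one of its genes.

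Motifs were searched within 50 bp of each summit on both strands and counted beside the 17403 promoter regions of the series list. Members enter with their highest-fold region only, so the share among the 12429 distinct highest-fold regions of all open genes is given as well. At least 1 of the 13 motifs was in 25 of 47 members (53.2%), against 39.7% of all promoter regions and 42.8% of highest-fold regions. ETS sites (CCGGAAGT) were in 6 of 47 members (12.8%), against 3.43% of all promoter regions and 4.37% of highest-fold regions. The 6 were Psmb7, Psmc2, Psmd6, Psmd14, Psme4 and Psmg3. ARE matches (TGACNNNGC) were in 5 (10.6%), against 6.30% and 6.53%, at Psmb2, Psmb5, Psmb6, Psmb10 and Psmg2. ISRE matches (GAAANNGAA) were in 4 (8.51%), against 2.41% and 2.00%, at Psmb3, Psmb4, Psmb9 and Psmg4, so constitutive genes held them too. KLF/SP sites (GGGCGGGG) were in 7 (14.9%), against 14.4% of all promoter regions and 16.7% of highest-fold regions. NRF1 sites (GCATGCGC), bound by a factor unrelated to Nfe2l1, were in Psma2 and Psmc5 (4.26%), against 1.40% of all promoter regions and 1.63% of highest-fold regions. The CCAAT box (ATTGGCT) was in Psma3 and Psmc3ip (4.26%), against 5.57% and 6.87%. Single members (2.13%) held a CRE (TGACGTCA, Psmb2), against 1.59% and 1.96%, or an E-box (CACGTG, Psma4), against 3.79% and 3.85%. A single member also held an NF-kB match (GGGANNTCC, Psma6), against 2.32% and 2.53%. None of the 47 windows held a TATA box (TATAAA), a PU.1 site (GAGGAAGT), a YY1 site (AAGATGGC) or a GAS element (TTCCNGGAA). Of all promoter regions 1.33%, 3.45%, 1.15% and 0.454% held them, and of highest-fold regions 1.17%, 2.71%, 1.38% and 0.467%. With 100 bp on either side of the summit, 4 members held a YY1 site (8.51%), against 2.88% of all promoter regions and 3.53% of highest-fold regions. In that window 1 member held a TATA box (2.13%), against 3.15% and 2.70%, and 1 a PU.1 site (2.13%), against 4.74% and 3.87%. The ETS and PU.1 letters end alike, but their first bases differ, so that no site was counted for both.

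With 47 windows these counts are small, and a match is a description of letters, not of binding. Psmb2, shown here because it alone held an ARE and a CRE in 1 window, had a fold of 16.2 in replicate 1 and 15.4 in replicate 2. Members had a median GC content of 62.4% in these windows and a median ratio of observed to expected CpG of 0.868, against 63.4% and 0.701 in all promoter regions and 64.4% and 0.774 in highest-fold regions. The CpG ratio was 0.868 in constitutive and 0.555 in immunoproteasome promoters.
Psmb2, chr4:126677576-126677676, plus strand: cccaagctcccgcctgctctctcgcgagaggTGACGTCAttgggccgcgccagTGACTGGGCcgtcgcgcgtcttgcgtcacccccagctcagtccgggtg

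**Figure D5:**
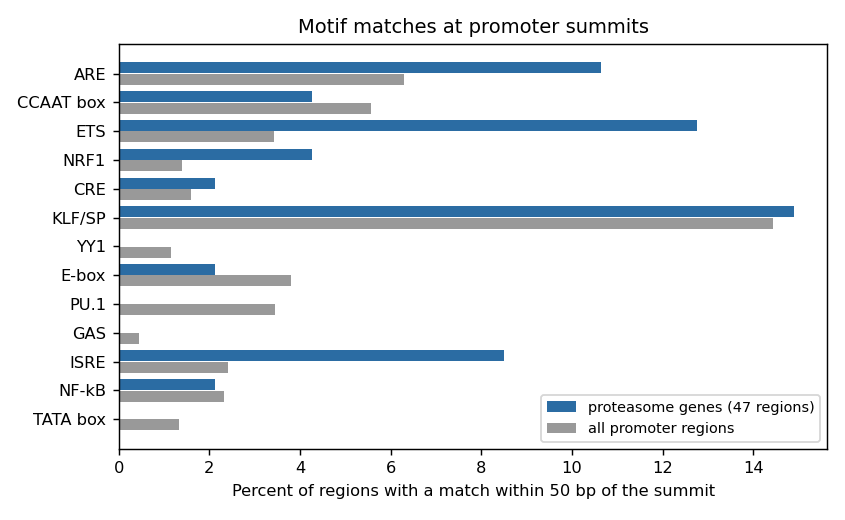
Percent of regions with a motif match within 50 bp of the summit (x axis) for the 47 open proteasome promoters, upper bar, and for all 17403 promoter regions of the series list, lower bar. ETS, ARE and ISRE bars are longer for proteasome genes (12.8%, 10.6% and 8.51%), KLF/SP bars are close, and YY1, PU.1, GAS and TATA box have no match among the members.

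Distal regions were those with a summit over 1 kb away from all TSSs of coding genes, each counted for its closest gene, and they were few. The median was 1 per member and also 1 over all genes, and 40.0% of members (20 of 50) and 40.1% of all genes had none. Psmg1 had the most, 11, with 8 in replicate 1 and 6 in replicate 2. In the series list they were spread from 4.753 kb to 128.83 kb downstream of its start, with a highest fold of 15.5. Psma6 had 8, Psma1 7 and Psmc1 6. Among immunoproteasome genes Psmb9 had 4 in the series list, 4 in replicate 1 and 1 in replicate 2. In the series list the nearest, 2.86 kb downstream of its start, had a fold of 10.3. Psmb8 had 1 in each of these lists. Psmb10, Psme1, Psme2 and Psme2b had none. Proximity does not show which gene a region acts on.

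Other genes of the pathway were open without exception among the 36 of 37 listed genes found in the annotation, where 62.7% of all genes were open. Their median fold was 9.63 (median percentile 43.2), below the medians of the proteasome genes and of all open promoters. Nfe2l1, the regulator of proteasome genes, had 12.5 in replicate 1, 10.8 in replicate 2 and 12.4 in the series list. Adrm1, a ubiquitin receptor of the cap, had 9.71, Sem1 (a small lid subunit) 10.1, Uchl5 9.95, Usp14 11.7 and Pomp, the maturation factor of the core, 11.1. Ubb, a ubiquitin gene, had 6.46. Among the genes of class I antigen processing, Tap2 had 6.07, Irf1 8.48 and Nlrc5 9.06. Tap1 had the value of Psmb9, 9.38, since the region is the same.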

How the data were processed

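ATAC-seq peak lists of 2 GMP replicates were used, 7 lists in all. Per the submitters' file list, coordinates are in mm10. The series lists come from the reads of both replicates, and each replicate has its own thresholded and looser list. The sources used here do not give the aligner, peak caller, versions or any Tn5 shift. As deposited, each row holds a fold ratio, a q-value on the -log10 scale (carried along, not reported) and a summit. Rows overlapping by 1 bp were merged, keeping the summit and fold of the row with the highest fold. Genes and TSSs, of every transcript type, came from GENCODE M21, and bases from RefSeq GRCm38.p6. Regions lay within those chromosome lengths. A percentile is the share of genes with an open promoter that have a lower fold, counting ties as 0.5.

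Members, roles, pathway genes and motifs were chosen with earlier results of these data known. The rule named the catalytic pairs, Psma7 and Psma8, Psme1 to Psme4, members without a region and the 3 highest and lowest of each class. Other members are given by fold, and Psma4, Psmb2, Psmc4, Psmc6 and Psmd14 also by replicate. That choice, and the pathway genes named beside Tap1, were made after their values were seen. The design has 1 group, so no test was run. The steps were tested on simulated regions. Python 3.11.15, numpy 2.4.6, scipy 1.17.1 and pyfaidx 0.9.0.4 were used. Precision cannot be stated, because depth is unknown. No columns of other samples were used.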

Additional observations from a re-analysis of the deposited data

How the results depend on the processing

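The counts of open promoters, 47 of 50 members, 31 constitutive and 5 immunoproteasome genes, stayed within 1.5 times under every alternative tried (another series list, each replicate alone, regions above the median fold, other promoter windows, no merging, coding starts only), as did the 36 pathway genes under the 4 other lists. Of the tissue-restricted subunits, 1 (Psma8) was open in the looser series list and 0 in the others. The median fold of members was between 10.7 and 12.7 with either replicate left out. The difference between the class medians, 3.07, was 2.59 to 2.94 with either replicate left out. It was 4.14 both at coding starts only and with the summit nearest to a TSS, where Psmb10 has the lower of its values. In the looser list it was 3.61, but there Psma8 (fold 4.48) was counted with the immunoproteasome genes, whose own folds did not change. Among regions above the median fold it was 3.35. That filter kept 28 of 31 constitutive and all 5 immunoproteasome genes. It removed only low constitutive genes, so it could not lower the difference. No setting turned the direction of the difference. The median number of distal regions, 1, was 2 in the looser list and 0.5 with a limit of 2500 bp. Members with at least 1 motif numbered 25 (53.2%, against 39.7% of all promoter regions and 42.8% of highest-fold regions). With a window of 100 bp on either side such members numbered 38 (80.9%, against 58.1% and 62.0%). With that window ISRE matches moved from 4 to 8 members (17.0%, against 4.75% and 4.22%). ARE moved from 5 to 9 (19.1%, against 11.5% and 11.9%) and KLF/SP from 7 to 14 (29.8%, against 23.2% and 26.8%). YY1 moved from 0 to 4 (8.51%, against 2.88% and 3.53%). PU.1 moved from 0 to 1 (2.13%, against 4.74% and 3.87%), as it did in replicate 2 alone. At coding starts only, members with at least 1 motif numbered 26, an alternative chosen after seeing the data like the shares in highest-fold regions. Replicates shared 47 promoter regions also with an overlap of 50% and in the looser lists. No paired analysis was possible because the series has 1 group. Depth is unknown, so what a missing region could hide is not known.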
